A study of Mus musculus with 9 samples.

Results

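Long unmethylated valleys of the mouse genome were drawn in nucleus accumbens DNA, taken from the ventral part of the striatum, as runs of at least 5 adjacent autosomal windows of 1 kb. Each window held at least 5 CpGs, and under 15% of the pooled calls of the Control libraries were methylated. Runs that touched the 4 Hox intervals were left out. The rule gave 285 valleys covering 1985 kb. Before the Hox intervals were left out there were 318 such runs, and low runs of any length numbered 16076. The valleys were thus selected on the pooled Control level, and their low level in the Control libraries is a description and not a result.

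Whole-genome bisulfite sequencing gave the share of calls read as methylated at each CpG, in tissue punches from male C57BL/6J mice aged 8 weeks. The study set a Control group of 5 libraries, numbered 2, 3, 4, 5 and 8, against a Susceptible group of 4 libraries, numbered 2, 3, 6 and 7. Per the labels' protocols, the stressor was defeat by an aggressive CD1 male on 10 days. All libraries carry the same treatment text, so it is not known here how the Control mice were handled or how susceptibility was scored. A punch holds many cell types, so a shift in the share of cells and a change within cells cannot be told apart. Nothing in the labels says more than that the libraries are separate samples, so p-values measure the spread between these samples.

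Most CpGs of a mammalian genome are methylated, and short unmethylated stretches mark the CpG islands at gene starts. Much longer unmethylated stretches, known as DNA methylation valleys or canyons, are found in many tissues over genes of developmental transcription factors. Many of those genes are silent in adult tissue and are held by Polycomb complexes rather than by DNA methylation. The borders of valleys are known to depend on the DNA methyltransferase Dnmt3a and on the TET enzymes that oxidise methylated cytosine. Bisulfite reads do not separate methylated from hydroxymethylated cytosine, a form that is abundant in neurons.

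Promoters of 3 covered genes are shown as examples of valley sequence, chosen after their values were seen because they differ in how densely CpGs are packed and read low. They come from RefSeq, build GRCm38.p6, run from 250 bases before to 50 bases after the listed start, and have each CpG in capitals. Barhl2 encodes a homeodomain factor of spinal cord and retina, Emx1 a homeodomain factor of the dorsal telencephalon, and Slc32a1 the vesicular GABA transporter. They lie at chr5:106458117-106458416 on the minus strand, chr6:85187681-85187980 on the plus strand and chr2:158610508-158610807 on the plus strand.
Barhl2: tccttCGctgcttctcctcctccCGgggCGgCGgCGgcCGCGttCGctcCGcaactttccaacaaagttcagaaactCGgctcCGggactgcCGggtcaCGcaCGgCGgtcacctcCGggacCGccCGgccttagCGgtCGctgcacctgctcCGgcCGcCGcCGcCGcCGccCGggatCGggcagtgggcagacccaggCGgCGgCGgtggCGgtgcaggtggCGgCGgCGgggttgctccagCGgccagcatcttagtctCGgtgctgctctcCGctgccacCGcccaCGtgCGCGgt
Emx1: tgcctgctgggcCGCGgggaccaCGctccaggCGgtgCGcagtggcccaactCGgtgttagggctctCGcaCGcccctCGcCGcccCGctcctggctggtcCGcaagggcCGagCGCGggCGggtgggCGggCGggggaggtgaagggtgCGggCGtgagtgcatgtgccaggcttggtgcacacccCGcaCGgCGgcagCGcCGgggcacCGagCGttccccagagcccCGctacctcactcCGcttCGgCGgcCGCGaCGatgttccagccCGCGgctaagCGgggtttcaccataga
Slc32a1: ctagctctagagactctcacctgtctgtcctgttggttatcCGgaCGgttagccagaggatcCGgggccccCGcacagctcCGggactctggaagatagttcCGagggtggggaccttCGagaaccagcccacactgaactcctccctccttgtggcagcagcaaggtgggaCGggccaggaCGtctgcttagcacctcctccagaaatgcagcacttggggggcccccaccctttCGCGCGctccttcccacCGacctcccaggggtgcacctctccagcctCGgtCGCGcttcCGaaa
The Barhl2 promoter holds 42 CpGs and read between 0.0 and 2.63% methylated across the 9 libraries. The Emx1 promoter, with 37 CpGs, read 1.27 to 3.23%. The Slc32a1 promoter holds 17 CpGs and read 0.0 to 3.498%. Not every promoter inside a valley was that low. The Neurod2 promoter, with 16 CpGs, read 5.81 to 25.7%, and that of Dlgap3, with 2 CpGs and 11 to 58 calls per library, 0.0 to 63.6%.

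MicroRNA genes also lay inside valleys, and mature sequences from RefSeq (GRCm38.p6) of the neuronal genes Mir132, Mir212 and Mir129-2 are shown with the seed, bases 2 to 8, in capitals. Of Mir132 and Mir212 the 3p arms are shown, because these share a seed. The first pair lies in a 5-kb valley over Hic1 (chr11:75169001-75174000). The second pair comes from 1 hairpin in a 7-kb valley nearest to Ttc17 (chr2:94241001-94248000).
miR-132-3p: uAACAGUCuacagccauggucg
miR-212-3p: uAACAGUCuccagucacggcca
miR-129-5p: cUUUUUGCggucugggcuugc
miR-129-2-3p: aAGCCCUUaccccaaaaagcau
The Hic1 valley read 1.93% ± 0.213 in Control (SD, n = 5) and 2.05% ± 0.262 in Susceptible libraries (SD, n = 4). The valley at Mir129-2 read 2.12% ± 0.745 (SD, n = 5) and 2.48% ± 0.356 (SD, n = 4). In both valleys the groups overlapped. Mir124a-3 and Mir124-2hg, loci of the neuronal microRNA miR-124, each lay in a further valley of 5 kb.

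Depth inside the valleys differed between the groups. Calls summed over the valleys ran from 1558273 in Control 5 to 3020147 in Susceptible 2. Of 82690 CpGs listed there in any library, Control 5 listed 65.8% and Control 8 75.7%, the other Control libraries 82.5 to 85.1%, and the Susceptible libraries 87.0 to 92.2%. Every Susceptible library thus listed more valley CpGs than every Control library, and group differences in level and in the number of valleys are also given without Control 5 and Control 8. Over the gene bounds of 12 striatal neuron markers, methylation was 59.999 to 63.5% in Control libraries and 60.4 to 69.0% in Susceptible libraries, where Susceptible 6 and 7 stood highest at 68.6 and 69.0%. Those of 6 cortical neuron markers read 44.7 to 50.5% and 44.7 to 47.4%, and those of 10 glial markers 74.4 to 78.5% and 72.8 to 76.6%. These values are methylation and not expression. Their part in the results was not tested. Neither unmethylated control DNA nor calls outside CpGs were used here, and how much of the low levels is incomplete conversion is therefore unknown.

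Most valleys were only a little wider than the rule asked. The median width was 6 kb, 109 valleys were exactly 5 kb wide, and 39 were 10 kb or wider. A further 402 runs outside Hox stopped at 4 kb. The pooled Control level of a valley had a median of 3.71% and ran from 0.922 to 9.08%. CpG density had a median of 42.4 CpGs per kb and ran from 8.8 to 85.6. Coverage per CpG relative to the autosomes had a median of 1.05, and 0 valleys stood above 2.

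Among the 10 widest valleys was the 20-kb valley over Barhl2 (chr5:106451001-106471000). An 18-kb valley covers both Hmx3 and Hmx2, homeodomain factors of the inner ear and hypothalamus. Foxa1, a pioneer factor of endoderm and of midbrain dopamine neurons, and Uncx, a homeodomain factor of somites, lie under valleys of 17 kb. Foxb1 (15 kb), Ebf3 (14 kb) and Foxd3 (14 kb) are further transcription factors among the 10 widest. Another, 15 kb over the predicted genes Gm36079 and Gm21188 on chromosome 13, had 22.5 CpGs per kb and the lowest relative coverage of all valleys, 0.687 of the autosomal value. Whether similar gene copies share reads there was not tested, so its width is uncertain.

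The 10 widest valleys held their low level in every library. The Barhl2 valley stood at 5.15, 3.99, 4.83, 4.78 and 4.01% in Control libraries 2, 3, 4, 5 and 8 and at 4.49, 4.202, 4.47 and 5.17% in Susceptible libraries 2, 3, 6 and 7. The group values interleave. The Hmx3 valley read 4.05% ± 0.380 (SD, n = 5) and 3.61% ± 0.319 (SD, n = 4), with overlapping groups. In pooled Control calls its first outside windows stood at 68.2 and 65.9%, although a window 11.5 kb right of its centre read 1.10% in the Control mean. The first outside windows of Barhl2 stood at 16.4% (left) and 15.5% (right) in pooled Control calls, just over the limit of the rule. The right window had a mean over Control libraries of 22.0%, with single libraries from 7.89 to 52.4%.

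**Figure D1:**
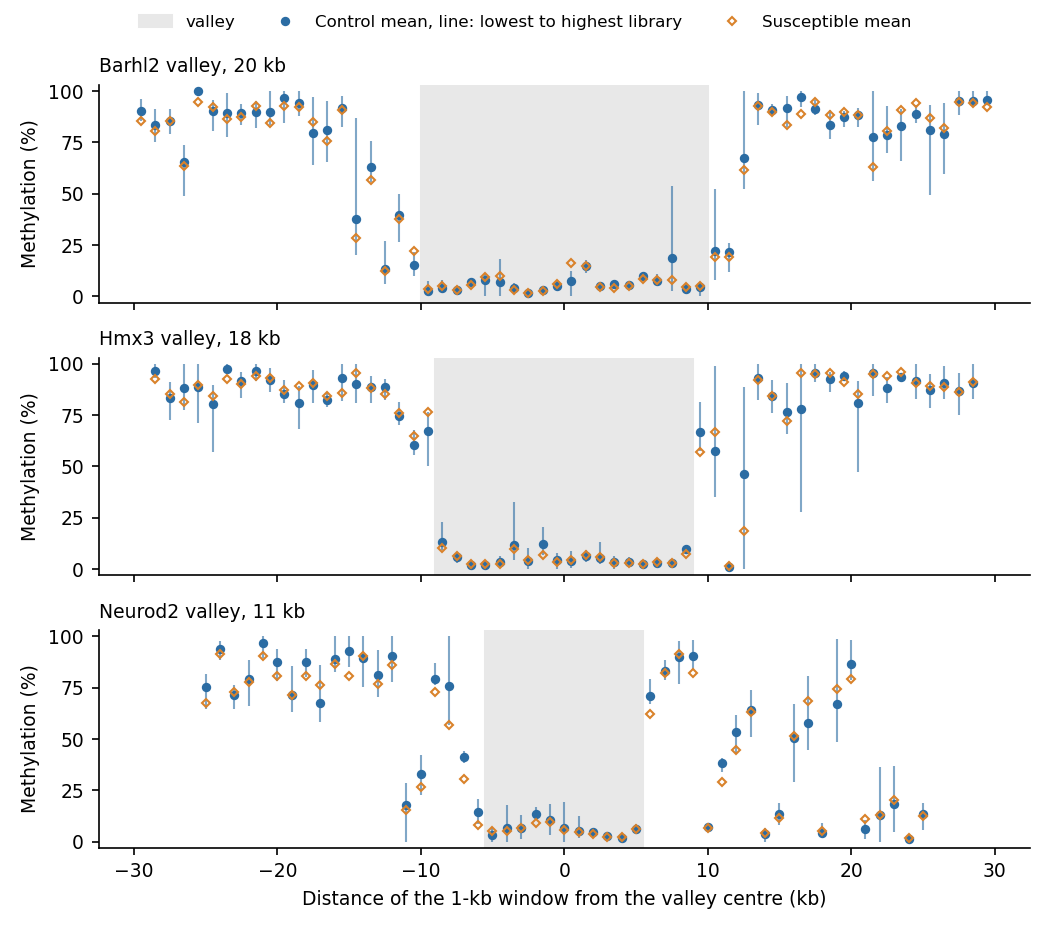
Methylation of 1-kb windows (y axis, percent) by distance from the valley centre (x axis, kb) for Barhl2, Hmx3 and Neurod2; dots are Control means, vertical lines run from the lowest to the highest Control library, diamonds are Susceptible means and the shaded band is the valley. Most group means inside the valleys stay under 15%, with exceptions of 18.5% (Control) and 16.1% (Susceptible) in single Barhl2 windows. The first windows outside Hmx3 have Control means of 67.3% (left) and 66.5% (right), and a window at 11.5 kb falls again to 1.10%. Going outward to the left of Barhl2 the Control means are 15.5, 39.6, 13.5, 63.0, 37.7 and 91.6%.

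Some valleys had a close neighbour. For 7 pairs the gap to the next valley was at most 1 kb, and for 27 pairs at most 10 kb. At Gata3, a zinc finger factor of T cells and of brainstem neurons, a valley of 8 kb covered 25.9% of the gene. Another of 11 kb lay mostly outside the gene and covered 3.09% of it. With 1 failing window allowed inside a run, the rule gave 396 valleys and 2942 kb.

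Values just inside and just outside the rule were close. The highest windows of the Tbx18, Gbx2 and Cramp1l valleys stood at 14.96, 14.94 and 14.94%. The windows that kept the runs at Mn1, Actg1 and Isl2 from qualifying stood at 15.01, 15.24 and 15.25%. At a limit of 16%, 20 further runs would have reached 5 kb.

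Genes were counted as covered where the RefSeq bounds of the gene overlapped a valley. Of the valleys, 262 overlapped a protein-coding gene, 17 others overlapped only noncoding genes, and 6 overlapped none. In all, 268 protein-coding genes were covered, 1.30% of 20661 on the autosomes, of which 51 lay wholly inside a valley. The table gives gene bounds without exons, so exonic and intronic parts are not separated.

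Genes of developmental transcription factors made up much of this set. Of 634 genes in lists of developmental families, 142 were covered, 22.4% against 1.30% of all protein-coding genes. These family lists hold transcription factors and also 120 signalling ligands and antagonists, of which 5 were covered. The lists were written with earlier results of these data known, so the counts are descriptions without a test. Valleys with a family gene numbered 155 and had a median width of 7 kb and a median level of 4.09%, taken over the means of the Control libraries. The 130 valleys without one had medians of 5 kb and 2.61%. Among valleys of 10 kb or more, 36 of 39 held a family gene, among those of 7 to 9 kb 47 of 72, and among those of 5 to 6 kb 72 of 174.

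Homeobox genes outside the Hox clusters, whose products bind DNA through a homeodomain and set cell identity, gave the largest group, with 63 of 147 covered. GATA factors had 4 of 5 covered, and their widest valley, 11 kb, overlapped 3.09% of Gata3. Paired box genes without a homeodomain had 3 of 4. Their widest valley was at Pax2 (13 kb), a factor of kidney and of the midbrain-hindbrain border. T-box genes had 5 of 15, led by Tbx5 (11 kb), a factor of heart and forelimb. Sox genes had 5 of 18, led by Sox14 (10 kb), a factor of interneuron development, and forkhead genes 11 of 41, led by Foxa1. Of the basic helix-loop-helix genes 11 of 72 were covered, and the widest of those valleys, 11 kb, lay over Neurod2, a factor of excitatory cortical neurons. Zinc finger regulators had 15 of 130, led by Osr2 (10 kb), a factor of palate and limb, and other developmental transcription factors 20 of 82, led by Ebf3.

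Genes that act beside these factors were covered in small numbers. Of 120 signalling ligands and antagonists, 5 were covered (4.17%, beside 1.30% of all protein-coding genes): Fgf9, Fgf11, Wnt11, the BMP antagonist Nog and the retinoic acid hydroxylase Cyp26b1. Fgf9, a growth factor, had the widest valley of that list at 7 kb. Of 31 genes of the Polycomb complexes, which keep many valley genes silent, 1 was covered (3.23%, beside 1.30% of all protein-coding genes). It was Jarid2, with a valley of 5 kb and a pooled Control level of 1.26%. No Hox gene was covered, as the rule fixes, although 2 valleys lay at Evx1, the homeobox gene beside the HoxA cluster.

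Lists by the embryonic territory in which factors act were covered to different extents. Of 46 genes of midbrain, hindbrain and spinal cord 29 were covered (63.0%), and of 55 genes of mesoderm and endoderm 30 (54.5%). Of 25 genes of the dorsal telencephalon 10 were covered (40%), and of 36 genes of the ventral telencephalon and striatum, the territory the tissue derives from, also 10 (27.8%). The last group included Dlx5 and Dlx6, homeodomain factors of GABA neurons, Gsx1, Lhx8, Meis2, Nkx2-1, Gbx2, Sp8 and the activity-induced factor Egr3. The widest of them was the 11-kb valley over Nkx2-1, a factor of the medial ganglionic eminence. Dlx1, Dlx2, Isl1 and Foxp1 were among the 26 not covered. Some genes stand in more than 1 list, and the differences between lists were not tested.

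The longest low run over a gene gave the same order without the limit of 5 kb. Its median was 6.5 kb for midbrain, hindbrain and spinal cord, 5 kb for mesoderm and endoderm, 4 kb for the dorsal and 3.5 kb for the ventral telencephalon, and 1 kb over all protein-coding genes. The first of these medians includes Evx2, whose run touches a Hox interval. Of the 36 ventral genes, 26 had a run of 1 to 4 kb and 0 had none. Of all 20661 protein-coding genes, 13010 had such a run and 7350 had none. Genes with none were also few in the other territory lists. They numbered 0 for midbrain, hindbrain and spinal cord, 1 for the dorsal telencephalon and 1 for mesoderm and endoderm.

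**Figure D2:**
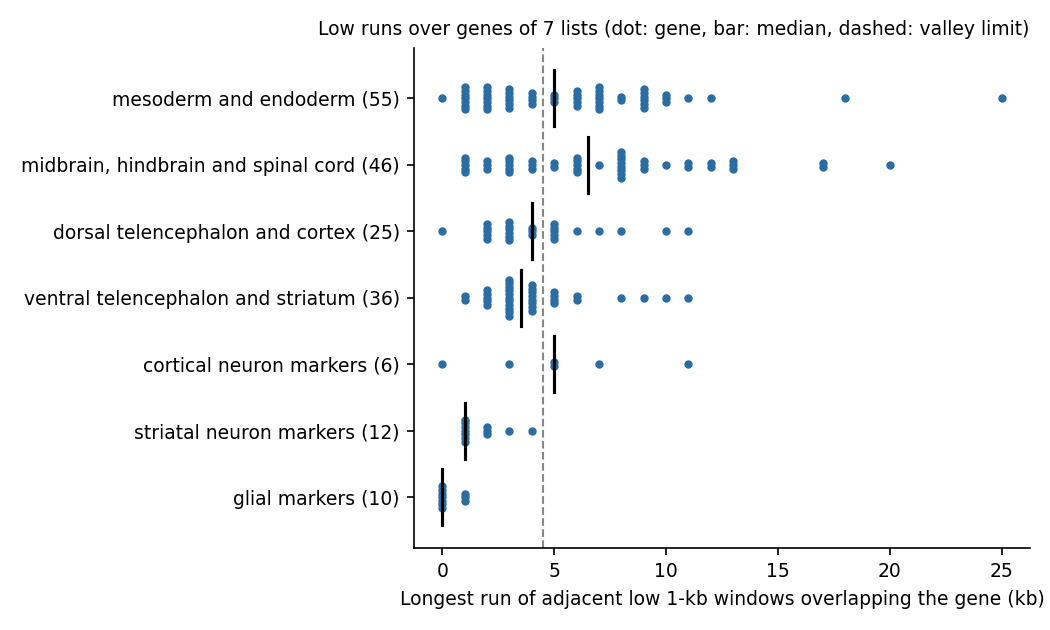
Longest run of adjacent low 1-kb windows that overlaps each gene (x axis, kb) for 7 gene lists (y axis, number of genes in brackets); each dot is a gene, bars are medians and the dashed line marks where valleys begin. Genes of the ventral telencephalon and striatum have a median of 3.5 kb, and the 12 striatal neuron markers all lie left of the line.

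Listed markers of mature striatal neurons and glia were not covered. None of 12 striatal neuron markers, such as the dopamine receptors Drd1 and Drd2 or the peptide precursor Penk, lay under a valley, and their longest low runs had a median of 1 kb. None of 10 glial markers was covered, and 7 of them had no low window, beside 7350 of all 20661 protein-coding genes. Since 1.30% of all protein-coding genes were covered and their median run was also 1 kb, the counts of 0 in these short lists are near the background. Of 6 cortical neuron markers, 4 were covered, among them the transcription factor genes Emx1, Neurod2 and Tbr1.

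Valleys without a family gene covered other kinds of genes, named here after their values were seen. They included the GABA enzyme gene Gad2, the transporter genes Slc32a1, Slc12a5 and Slc6a5, the neurotrophin gene Bdnf and the chromatin genes Kmt2a, Kmt2e, Setd5, Sin3a, Kdm6b and Brd2. The Gad2 valley was 6 kb wide and read 3.21% ± 0.898 in Control (SD, n = 5) and 3.40% ± 1.29 in Susceptible libraries (SD, n = 4). The Slc32a1 valley, 8 kb wide, read 4.32% ± 1.26 (SD, n = 5) and 5.06% ± 0.899 (SD, n = 4). Both pairs of groups overlapped. Among valleys with no protein-coding gene, 1 of 5 kb lay over the long noncoding RNA gene Malat1, and 2 of 5 and 6 kb lay over clusters of transfer RNA genes.

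Measured from the most upstream listed start, valleys reached farther downstream than upstream. Where a gene had several listed starts in a valley, that choice shortens the upstream side and lengthens the downstream side. In 159 valleys with the start of a single protein-coding gene, the low run extended a median of 2.53 kb upstream of the start (quartiles 1.43 and 3.803) and 3.77 kb downstream (quartiles 2.54 and 4.95). In 99 of them the downstream side was longer, and it can run past the end of a short gene. Start positions and strands came from the RefSeq promoter table, which holds 203 of the 268 covered genes.

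Promoters of valleys had a GC content and CpG number close to those of promoters in shorter low runs. Promoters of 300 bases inside valleys (225 promoters) had medians of 63.0% GC and 22 CpGs. Those in low runs of 1 to 4 kb had medians of 63.0% GC and 23 CpGs, and those elsewhere a median of 3 CpGs. The letters TATAAA, searched on both strands, stood in 9.33% of valley promoters, 5.58% of promoters in the shorter runs, 21.7% of those elsewhere and 12.7% of all 20084 promoters of the autosomes. A match of these letters is a description and not a binding site.

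Wider valleys were slightly less dense in CpGs. Over the 285 valleys, width and CpGs per kb had a Pearson correlation of -0.246, width and pooled Control level one of 0.172, and CpG density and level one of -0.525. Valleys share the same pooled libraries, and density and level come from the same CpGs, so these are descriptions without a test.

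Averaged over all valley edges, methylation rose over several kb. Windows of low runs of 1 to 4 kb were kept among the outside windows, and their part in this average was not tested. Such a window, 11.5 kb right of the centre of the Hmx3 valley, held 60 CpGs and read 1.10% in the Control mean. In the last window inside an edge the Control level was 5.33% ± 0.258 (SD, n = 5), against 2.78% ± 0.167 (SD, n = 5) 1 window deeper. In the first window outside it was 38.3% ± 1.24 (SD, n = 5), which the rule partly sets. It then stayed between 45.4 and 48.5% from 2 to 5 kb outside, and reached 61.0% at 7 kb and 69.5% ± 0.949 (SD, n = 5) at 10 kb. Of 570 edges, 498 ended because the level passed the limit, 14 because CpGs were too few, 51 for both and 7 at a window with no listed CpG.

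Single edges ranged from steep to shallow. The first outside window had a median pooled Control level of 35.1% (quartiles 22.5 and 64.0) over 563 edges with a value. It was 50% or higher at 191 edges and 15 to 25% at 167. In the valleys with the start of a single protein-coding gene, the median was 47.2% on the upstream side and 33.97% on the downstream side. The downstream edge was the higher one in 70 of 157.

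**Figure D3:**
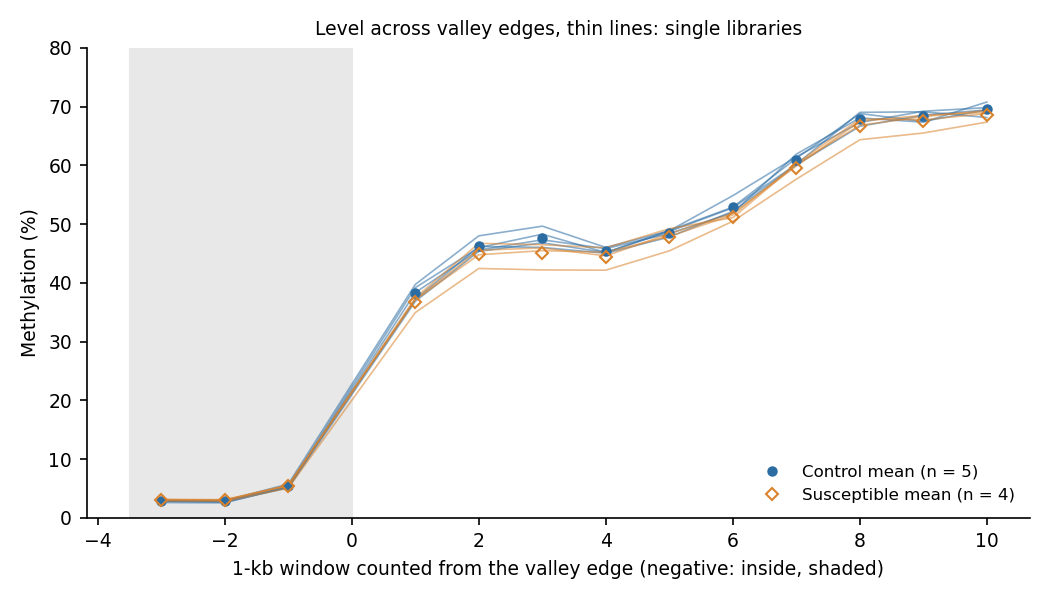
Methylation (y axis, percent) of 1-kb windows counted from the valley edges (x axis, negative inside), over all valleys; thin lines are single libraries, dots and diamonds are group means. The Control mean climbs to 38.3% at 1 kb, stays between 45.4 and 48.5% from 2 to 5 kb and reaches 69.5% at 10 kb, and Susceptible 7 is the lowest line outside the valleys. Windows of low runs of 1 to 4 kb are kept outside the edges.

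The level around the valleys was compared between the groups at 1, 2, 3, 4, 5 and 10 kb outside the edges. At 3 kb the Control libraries 2, 3, 4, 5 and 8 read 46.0, 49.6, 46.8, 47.3 and 48.3%, and the Susceptible libraries 2, 3, 6 and 7 read 45.9, 45.5, 46.5 and 42.2%. All Susceptible libraries but number 6 lay below every Control library. The means were 47.6% ± 1.40 (SD, n = 5) and 45.0% ± 1.93 (SD, n = 4), so the difference was -2.59 percentage points. The exact permutation test, two-sided, gave p = 0.0317, and 0.190 after Benjamini-Hochberg adjustment over the 6 distances, so it missed the threshold. Since Control calls placed the edges, the difference was also taken around valleys redrawn on all 9 libraries, where it was -2.55 points at 3 kb (exact permutation p adjusted 0.143). Around valleys drawn on Susceptible calls it was -2.59 points, and with each CpG weighted equally it was -0.837 points. At 2, 4, 5 and 10 kb the differences were -1.35, -0.964, -0.814 and -0.884 points, with adjusted exact permutation p of 0.286 to 0.341. With CpGs listed in all 9 libraries those at 5 and 10 kb were -0.0354 and -0.254 points, and with each CpG weighted equally those at 2, 4, 5 and 10 kb were -0.437, -0.573, -0.277 and -0.491 points. At 1 kb the difference was -1.59 points, given without a test because the rule partly sets that window, and the value around the valleys redrawn on all 9 libraries was -1.39 points, with an adjusted exact permutation p of 0.248. Without Susceptible 7, the lowest library, the differences at 1, 2, 3, 4, 5 and 10 kb were -1.02, -0.537, -1.65, -0.191, -0.0520 and -0.459 points. Without Susceptible 6 those at 1, 2, 3, 4 and 5 kb were -1.86, -1.96, -3.08, -1.46 and -1.31 points. Over all autosomal calls Susceptible 7 was also the lowest library, at 74.5% against 75.7 to 77.1% in the others. Whether the differences outside the edges exceed that of the autosomes was not tested. Without Control 5 and Control 8 the difference at 3 kb was -2.47 points, and those at the other tested distances ran from -1.64 to -0.794 points. The windows at 6 to 9 kb were not among the distances tested, and their values are descriptions named after they were seen. At 6 kb the Control libraries read 51.9 to 54.8% and the Susceptible libraries 50.5 to 51.8%, without overlap, a difference of -1.67 points. At 7, 8 and 9 kb the groups overlapped, with differences of -1.46, -1.33 and -0.826 points.

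Inside the valleys the Susceptible libraries read slightly higher on average. Over all valley calls the Control libraries 2, 3, 4, 5 and 8 stood at 3.62, 3.73, 3.46, 3.61 and 3.35%, and the Susceptible libraries 2, 3, 6 and 7 at 3.76, 3.82, 3.79 and 3.53%. Susceptible 7 fell among the Control values, so the groups overlapped. The 95% Wilson intervals, which cover counting error only, were narrow, for example 3.58 to 3.64% in Control 5. Means were 3.55% ± 0.148 (SD, n = 5) and 3.72% ± 0.132 (SD, n = 4), and the Susceptible mean was higher by +0.169 points. Control calls drew the valleys, which favours windows where those calls happened to be low, so this difference is given without a test. With the valleys redrawn on the pooled calls of all 9 libraries the difference was +0.109 points (two-sided exact permutation p = 0.238). Drawn on pooled Susceptible calls it was +0.0544 points. Without Control 5 and Control 8 the difference in the valleys drawn on Control calls was +0.119 points. On those valleys it was +0.192 points with CpGs listed in all 9 libraries and +0.217 points with each CpG weighted equally.

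Shorter low runs also read higher in the Susceptible mean. Runs of 1 to 4 kb read 3.35% ± 0.0962 in Control (SD, n = 5) and 3.52% ± 0.133 in Susceptible libraries (SD, n = 4), higher by +0.172 points. Redrawn on all 9 libraries the short runs differed by +0.0941 points (two-sided exact permutation p = 0.230), and drawn on Susceptible calls by +0.00995 points. With each CpG weighted equally the short runs drawn on Control calls differed by +0.311 points. The valley difference minus the short-run difference was -0.00273 points on Control calls, given without a test, and -0.0364 points without Control 5 and Control 8. The runs redrawn on all 9 libraries gave +0.0148 points (two-sided exact permutation p = 0.714), and those drawn on Susceptible calls +0.0445 points, so its sign depended on the calls that drew the runs. Hox runs of 5 kb or more, outside the valley set, read 4.44% ± 0.363 (SD, n = 5) and 4.59% ± 0.286 (SD, n = 4).

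**Figure D4:**
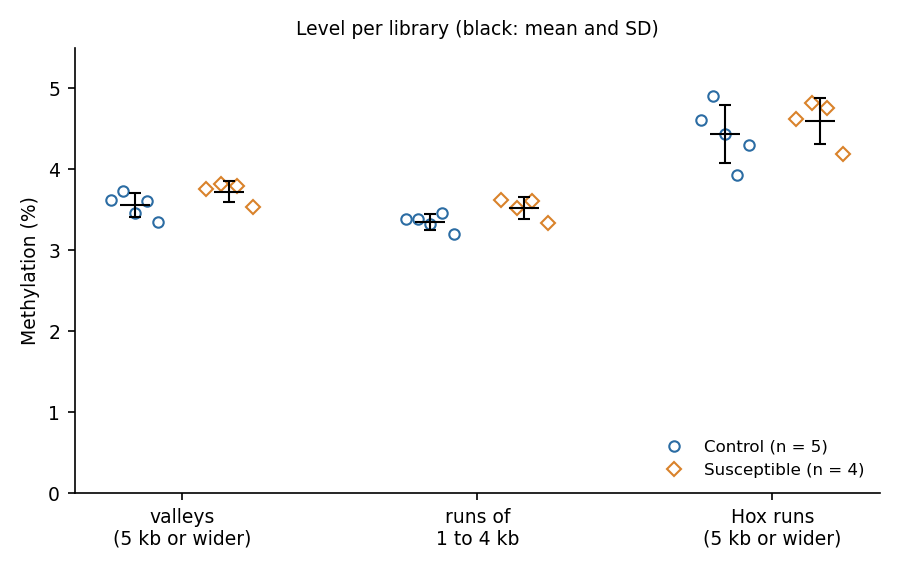
Methylation per library (y axis, percent of calls) in valleys, in low runs of 1 to 4 kb and in Hox runs of 5 kb or wider (x axis); open symbols are libraries and black marks are means with SD. The Susceptible mean is slightly higher in each class, with overlap between the groups in all 3.

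Counted valley by valley, 183 of 285 (64.2%) read higher in the Susceptible mean, beside 59.7% of all low runs. The median difference was +0.119 points over the valleys and +0.168 points over all low runs. Drawn on all 9 libraries, 174 of 284 valleys were higher (61.3%), and drawn on Susceptible calls 164 of 296 (55.4%). Among the valleys drawn on Control calls, homeobox genes lay under 66, of which 33 were higher, with a median difference of -0.00310 points. Of the 130 valleys with no developmental family gene 97 were higher, with a median of +0.255 points. The difference between these sets was not tested.

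No single valley passed the test. In the quasi-binomial model, moderated by limma and fitted over 15798 low runs, 0 of the 285 valleys had an adjusted p under 0.05, and 0% of all runs did. The smallest adjusted p among the valleys was 0.848. At an unadjusted p under 0.05 there were 25 valleys, 8.77% of them, beside 5.63% of all low runs. limma on logit methylation called 0, with 4 valleys at that unadjusted level beside 4.74% of all low runs. On runs drawn from all 9 libraries the quasi-binomial model called 0, with 21 of 284 valleys at that level beside 5.21% of all those runs. Since Control calls drew the runs, these counts describe the valleys and are not independent of the rule. In 7 valleys every Susceptible library was higher than every Control library, beside 2.03% of all low runs, and in 1 valley every one was lower, beside 0.26%. Drawn on all 9 libraries or on Susceptible calls, 4 valleys were higher without overlap and 0 were lower. The share over all low runs was not taken for these drawings, so these counts stand without a background.

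The valley of smallest p was at Dlgap3, although it did not pass. Dlgap3 encodes a scaffold protein of the postsynaptic density that is abundant in striatum, and its 6-kb valley is at chr4:127168001-127174000. It read 3.27, 2.11, 2.48, 3.23 and 1.49% in Control libraries 2, 3, 4, 5 and 8, and 4.85, 3.56, 4.995 and 5.05% in Susceptible libraries 2, 3, 6 and 7. Each Susceptible library was higher than each Control library. The means were 2.52% ± 0.757 (SD, n = 5) and 4.62% ± 0.706 (SD, n = 4), which gives +2.10 points from 4555 to 6201 calls per library. The run was drawn on Control calls, so this difference is a description.

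The valley of Ppp1r9b, which encodes the dendritic spine scaffold spinophilin, lay at chr11:94989001-94995000. It read 2.55, 2.83, 2.19, 1.33 and 1.96% in the Control libraries in that order and 3.31, 2.91, 4.06 and 2.998% in the Susceptible libraries. The groups did not overlap, and the difference of the means was +1.15 points. The valley of Prmt8, a brain-enriched arginine methyltransferase, read 3.08, 3.08, 2.56, 0.605 and 1.94% and then 3.19, 3.55, 3.84 and 3.55%. Here too the groups did not overlap, with a difference of +1.28 points. Control 5, the library with the fewest valley CpGs listed, was the lowest library in both, and without it the differences were +0.938 and +0.867 points.

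Erf, an ETS-domain repressor, and Nr4a3, an activity-induced nuclear receptor, complete the 5 valleys of smallest p. The Erf valley differed by +1.70 points and the Nr4a3 valley by +0.639 points, and their groups overlapped. The other 4 valleys with every Susceptible library higher covered Tfap2a, the histone methyltransferase gene Kmt2a, Gsc and Prdm13. They were not named by the rule and were chosen after their values were seen, as was Lhx9, a homeodomain factor of diencephalon and gonad. The Lhx9 valley was the 1 in which every Susceptible library was lower, with 6.46% ± 1.42 in Control (SD, n = 5) and 4.79% ± 0.382 in Susceptible libraries (SD, n = 4).

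No single window inside a valley passed either. Of 1985 valley windows 1858 could be tested, among 1041809 windows of the autosomes and X. The limma-moderated model called 0 of them, and 0% of all windows. At an unadjusted p under 0.05 there were 86 valley windows, 4.63% of them, beside 4.38% of all windows, and limma on logit methylation called 0, with 52 at that level beside 3.25% of all windows. In 31 valley windows every Susceptible library was higher than every Control library, beside 0.598% of all windows, and in 3 every one was lower, beside 0.96%. Valley windows were chosen for a low pooled Control level, so these counts are not independent of the rule.

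The 5 windows of smallest p lay in different valleys. The first, at chr2:180892001-180893000 in the valley of Mir124a-3, read 3.997, 4.36, 2.46, 2.08 and 2.18% in the Control libraries and 5.59, 7.50, 7.49 and 7.53% in the Susceptible libraries, without overlap. The second, at chr9:74853001-74854000 in a valley nearest to Onecut1, was lower, at 9.05, 13.3, 12.5, 10.7 and 10.01% and then 7.11, 3.82, 3.45 and 3.85%. Its groups did not overlap either. The other 3 were higher in the Susceptible mean. They lay at Hmx1, a homeodomain factor of eye and ear (+3.25 points), at Dio3, an imprinted enzyme that inactivates thyroid hormone (+7.19 points), and at the edge of the valley of Flrt2, an adhesion protein of axon guidance (+8.40 points). These windows were chosen by their p among windows selected for low Control levels, so their differences are descriptions.

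More valleys could be drawn on a single Susceptible library than on a single Control library. With the rule applied to each library's own calls, Control libraries 2, 3, 4, 5 and 8 gave 271, 260, 279, 252 and 262 valleys, and Susceptible libraries 2, 3, 6 and 7 gave 296, 296, 281 and 303. The lowest Susceptible count, 281, exceeded the highest Control count, 279. The means were 264.8 ± 10.4 (SD, n = 5) and 294.0 ± 9.27 (SD, n = 4), with a two-sided exact permutation p of 0.0159 and an adjusted p of 0.0317 over the pair of measures. Total valley length was 1552 to 1842 kb in Control and 1840 to 2053 kb in Susceptible libraries, a difference of +228.9 kb (two-sided exact permutation p = 0.0397, adjusted 0.0397). A window needs 5 CpGs listed in that library, and the share of valley CpGs listed was also higher in every Susceptible library. Susceptible 7, which gave the most valleys, had the lowest share listed in its group, 87.0%, and the lowest autosomal level of all libraries, 74.5%. The part of the listed share and of the autosomal level in these counts was not tested.

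With windows and calls matched between libraries the difference was smaller. In windows with 5 CpGs listed in every library it was +15.5 valleys (exact permutation p adjusted 0.0714). With the calls of each window also thinned to the lowest number of any library, it was +8.25 valleys and +52.8 kb (exact permutation p adjusted 0.222 for both). The thinned counts were 216, 206, 216, 226 and 206 in Control and 220, 222, 211 and 236 in Susceptible libraries, which overlap. Without Control 5 and Control 8 the difference on all calls was +24.0 valleys (exact permutation p adjusted 0.0857). The counts of the groups still did not overlap there. Fewer libraries leave fewer assignments, so the smallest possible p is larger. This p therefore cannot tell a weaker difference from a smaller test.

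**Figure D5:**
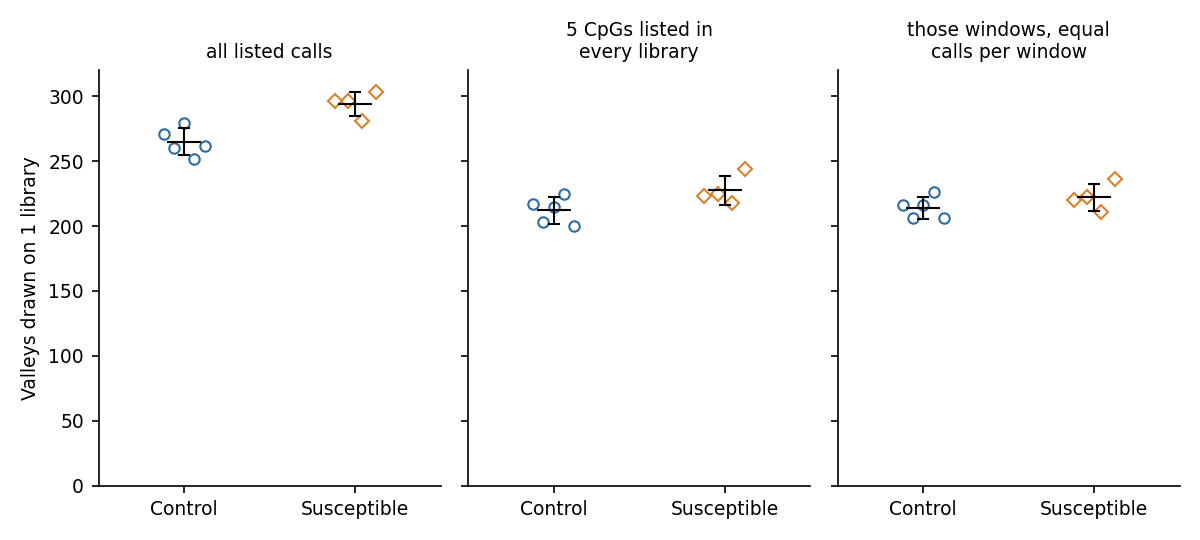
Number of valleys drawn on the calls of 1 library (y axis) in Control and Susceptible libraries (x axis), with all listed calls, with windows that hold 5 listed CpGs in every library, and with those windows thinned to equal calls; open symbols are libraries, black marks are means with SD. The groups are apart in the left panel only, and overlap in the others.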

How the data were processed

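CpG methylation of 9 nucleus accumbens libraries was analysed from the deposited tables of single cytosines. Per the submitters' processing notes, Bismark, Bowtie, Picard and the build mm10 were used, with versions not given in the sources used here. Columns of the deposited tables hold, per the file headers, a count of calls (coverage) and the percent read as C and as T, and every deposited cytosine has at least 10 calls. No column was left without a sample.

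Methylated calls were recovered from count and percent, the strands of a CpG were added, and calls were summed in windows of 1000 bp. Levels are methylated over all calls. Group differences were tested with two-sided exact permutation tests over the 126 assignments of 9 libraries, whose smallest p is 0.00794. Single valleys and windows were tested with a quasi-binomial model whose dispersion was moderated by limma 3.58.1 in R 4.3.3. Benjamini-Hochberg adjustment was over all runs or windows. Runs and windows needed 20 or more calls in every library, and windows also 3 or more CpGs. The model was also run on simulated data. Their dispersion was set lower than the median fitted to the low runs, 7.66, so that run does not describe how the test behaves here. limma on logit methylation was the other tool.

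Members and gene lists were chosen with earlier results of these data known. The text names the 10 widest valleys, the 5 valleys and 5 windows of smallest p, the widest valley of each list, and 3 runs on each side of the level limit; some genes that this rule names are not reported here. Gene bounds and promoters came from RefSeq tables of GRCm38.p6.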

Additional observations from a re-analysis of the deposited data

Results flagged for a closer look

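Of 106 groups of library values looked at, 8 held a library that stood far from the others of its group by Dixon's criterion, where chance gives about 1 in 20. In the first window outside the valleys Susceptible 7 read 34.9%, against 37.1 to 37.5% in the other Susceptible libraries. It was also the lowest in the Ebf3 valley, at 3.26% against 3.67 to 3.74%. Susceptible 3 was lowest in the 11-kb Gata3 valley, at 5.83% against 6.48 to 6.54%, and in the Dlgap3 valley, at 3.56% against 4.85 to 5.05%. Susceptible 6 was lowest in the Fgf9 valley, at 1.33% against 1.62 to 1.66%. Control 3 was highest in the Osr2 valley, at 5.43% against 4.55 to 4.75% in the other Control libraries. Susceptible 2 stood apart in both leading windows, at 5.59% against 7.49 to 7.53% in the Mir124a-3 window and at 7.11% against 3.45 to 3.85% in the Onecut1 window, in each case toward the Control values.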

How the results depend on the processing

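The number of valleys depended on the minimum width, with 687 runs of at least 4 kb and 111 of at least 7 kb. It stayed within 1.5 times of 285 under the other limits, from 198 at a level under 10% to 396 with a gap allowed. The difference in level inside the valleys stayed positive in every alternative run, from +0.0544 to +0.234 points. The difference between the valley and short-run effects changed sign with valleys drawn on all 9 libraries (+0.0148 points), on Susceptible calls (+0.0445 points), with CpGs listed in all 9 libraries (+0.0375 points) and with at least 20 calls per CpG (+0.00433 points). With each library left out in turn it ran from -0.0325 to +0.0319 points. Each CpG weighted equally gave -0.0936 points and the replicate block -0.0754 points, beside an SD of 0.0875 points among Control and 0.0641 points among Susceptible libraries. Levels outside the edges kept their direction and missed the threshold in every setting run.

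The excess of valleys drawn per Susceptible library passed the threshold on all calls only. It was 15.5 valleys and 95.3 kb in windows with 5 CpGs listed in every library and 8.25 valleys and 52.8 kb after thinning. Without Control 5 and Control 8, a choice made after seeing the data, it was 24.0 valleys and 159.5 kb. With each library left out in turn it was 26.0 to 33.5 valleys, past the threshold in 4 of 9 cases, and 186.0 to 266.4 kb, past it in 2 of 9. The valley counts of the groups stayed apart in each of these cases. With a library left out there are fewer assignments and the smallest possible p is larger. The missed thresholds therefore cannot tell a weaker difference from a smaller test. Control 5, with the fewest CpGs listed, gave the fewest valleys on all calls (252) and the most of any Control library in windows with 5 CpGs listed in every library (225).

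Replicate numbers 2 and 3 occur in both groups. Deviations from the group means over valleys correlated at 0.0703 and -0.0128 between libraries of the same number. Between libraries of different numbers the correlations ran from -0.187 to 0.245. The labels do not say what the number stands for, and with so few pairs these values cannot decide whether same-numbered libraries belong together. With the replicate block the differences were 30.5 valleys and 190.0 kb, for which the smallest possible p is 0.5. In the limma-moderated model the block, which leaves 1 residual degree of freedom, put 2 valley windows past the adjusted threshold, beside 0.0623% of all windows. It also put 1 valley past it, beside 0.114% of all low runs. Without the block, 0 valley windows and 0 valleys passed, with all libraries and with any 1 library left out.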
